A study of Mus musculus with 32 samples.

Results

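The comparison described is that of cort with veh in epididymal white adipose tissue (eWAT) of mice on a high protein diet (HPD), and it rests on 8 of the 32 RNA libraries of the series, those labelled eWAT with the high protein diet. Cort HPD mice (4 libraries) were given corticosterone (cort), the main glucocorticoid hormone of rodents, and Veh HPD mice (4 libraries) were given only the ethanol vehicle (veh), in both groups in the drinking water. All were male C57BL/6 mice (C57BL/6J in the study's methods) of 10 weeks on the HPD, with 60% of energy as protein, for the same 7 days, and were fasted before the tissue was taken. The diet, the vehicle and the fast were thus shared by both groups, and the other 8 eWAT libraries, 4 with cort and 4 with veh on a normal protein diet (NPD, 20%), entered the fit, the choice of genes to set aside and the test of the difference between diets. Nothing in the labels ties a library to a named animal, so the p-values measure the spread between these samples. Each level is given for replicates 1 to 4 in that order, in CPM, counts scaled to a common library total. Where a mean is given instead, it stands with its SD over the 4 libraries. Gene positions are those of GENCODE on build GRCm38. QuantSeq libraries count the 3′ ends of transcripts.

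Glucocorticoids bind the glucocorticoid receptor, which moves to the nucleus and raises or lowers the transcription of target genes. In adipocytes they are known to act on lipid storage and lipolysis, on leptin and adiponectin, and on the regeneration of the active hormone by 11β-hydroxysteroid dehydrogenase type 1. In immune cells they are known to dampen antigen presentation, chemokines and cytokines, while several acute phase proteins are among the genes they induce. In fibroblasts they are known to lower the synthesis of fibrillar collagens.

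The 8 libraries held 15123173 to 18057936 counts in Veh HPD and 9794683 to 15906959 in Cort HPD, on 15988 to 17259 genes. Cort HPD replicate 4 held RNA of the epididymis, the organ on which this fat depot lies: the summed level of 18 epididymis and testis markers was 26296 CPM there, against 1.05, 16.2 and 11.8 CPM in the other Cort HPD libraries and 0.444 to 3.12 CPM in Veh HPD. Genes of at least 1 CPM in that library and at least 5 times the highest level of the other 15 eWAT libraries were set aside. This removed 338 genes, led by Gpx5, Defb48, Defb25, Lcn8 and Lcn9, which held 5.2% of its counts and at most 0.0424% of those of any other eWAT library. Of the 338, 100 had been tested and 9 had passed the test, and none is counted or named as a result below. Among them were the list members Lcn2, Aldoc, Egr2, Gata3 and Klrb1c. Genes that fat and epididymis share could not be set aside this way, so for most gene lists the count of calls is also given without Cort HPD replicate 4.

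Adipocyte markers were present in all 8 libraries. Their summed level was 41915 to 57011 CPM in Veh HPD and 31544 to 38364 CPM in Cort HPD, without overlap. Without Cfd (adipsin), the sum over the other 8 adipocyte markers was 29153 to 37453 CPM (median 32341) and 28836 to 35237 CPM (median 32522), with overlap. Red blood cell markers were higher in each Cort HPD library, at 12688 to 25865 CPM against 5252 to 9272 CPM in Veh HPD, and 6 of the 7 genes of that list were called higher (4 without Cort HPD replicate 4). On the NPD the red blood cell sums overlapped, at 3619.7 to 6490.4 CPM in Cort NPD and 3889.8 to 7129.8 CPM in Veh NPD. Brown adipocyte markers were lower in each Cort HPD library (8.79 to 11 against 19.9 to 52.5 CPM), with Ucp1, the defining gene of brown fat, at 2.04 CPM in Veh HPD replicate 2 and at 0 in the other 7 libraries. The summed level of skeletal muscle markers was also lower without overlap (12.6 to 21.9 against 22.9 to 92.7 CPM), as was that of neutrophils and mast cells (18.7 to 27.7 against 28.2 to 31.8 CPM). Of their genes, 0 of 5 and 0 of 7 tested were called in edgeR, with 1 and 0 at an unadjusted p under 0.05, 1 and 0 called in DESeq2 and 0 in limma voom. The sums of mesothelium, hepatocyte, exocrine pancreas and B cell markers overlapped between the groups, and 0 of their 18 tested genes were called in edgeR, with 3 at an unadjusted p under 0.05, 1 called in DESeq2 and 0 in limma voom. In bulk RNA, fewer cells of a type and less of a transcript per cell cannot be told apart, and the part of red blood cells and of the other cell types in the results below was not tested.

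**Figure D1:**
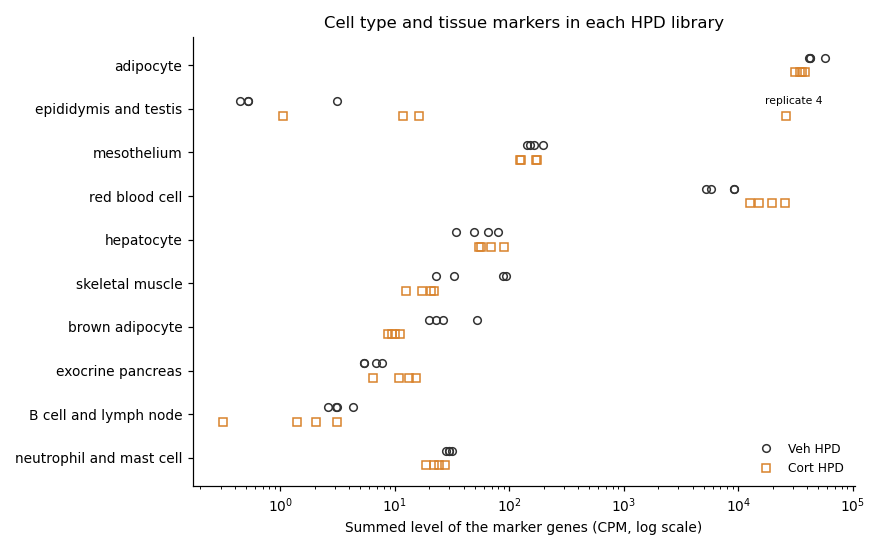
Summed level of each marker list (CPM, log axis) in each Veh HPD library (circles) and Cort HPD library (squares). The epididymis and testis sum of Cort HPD replicate 4 stood at 26296 CPM, and the red blood cell sums did not overlap between the groups.

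Of the 15087 genes tested, 916 (6.07%) passed the test between Cort HPD and Veh HPD, with 516 (3.42%) higher and 400 (2.65%) lower with cort. Genes were called at a Benjamini-Hochberg adjusted p-value under 0.05 in edgeR's quasi-likelihood test. The counts of called list members below stand beside the shares of 3.42% higher and 2.65% lower. No list was tested as a set, and 1 or 2 calls in a list are not read as its response. The median log2 fold change was 0.76 over the genes called higher, -0.92 over those called lower and -0.01 over all genes tested. A change of more than 1 on the log2 scale was found for 173 of the higher and 171 of the lower genes, and of more than 2 for 39 and 34. The 4 Cort HPD libraries lay wholly above or below the 4 Veh HPD libraries for 1696 genes (11.2%), and 774 of these were called. Without Cort HPD replicate 4, 742 genes were called, 661 of them among the 916, and 0 of these had the other sign. Leaving out Veh HPD replicate 1 gave 581 calls. Veh HPD replicate 4 stood apart from its group on adipocyte markers, and leaving out replicate 4 of both groups gave 1109 calls, 720 of them among the 916. In all, 430 of the 916 genes (46.9%) kept their call whichever of the 8 libraries was left out.

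**Figure D2:**
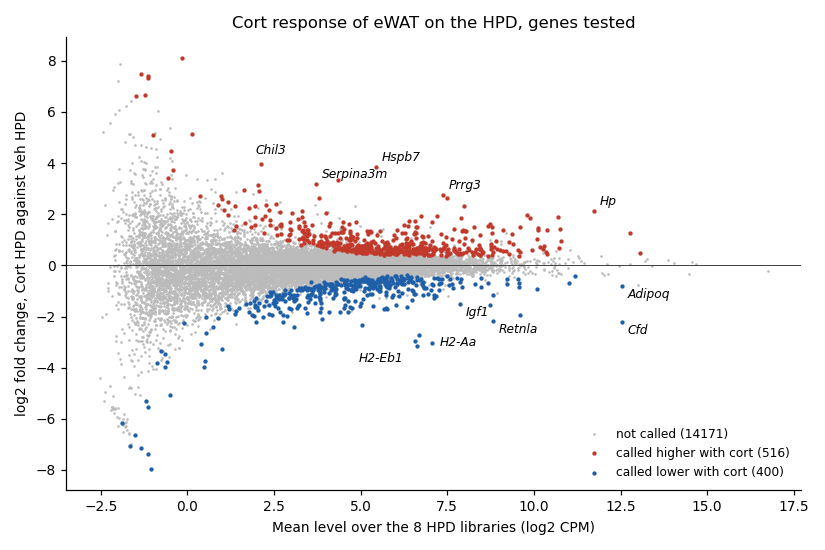
Fitted log2 fold change of Cort HPD against Veh HPD (y axis) by mean level over the 8 libraries (x axis, log2 CPM), 1 point for each of the 15087 genes tested. Called genes are coloured (516 higher, 400 lower); the class II genes H2-Aa and H2-Eb1 stood apart at the lower side and Prrg3, Hspb7 and Hp at the upper side.

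The genes that rose with the smallest p were taken first. Prrg3 (ENSMUSG00000033361, chrX:71962624-71972722), which encodes a membrane protein with a Gla domain, was at 57.8, 70.7, 74.4 and 54.1 CPM in Veh HPD and at 425, 356, 539 and 398 CPM in Cort HPD (log2 fold change 2.75, SE 0.15, edgeR adjusted p = 2.1e-12). Fhl1 (ENSMUSG00000023092, chrX:56731787-56793346), a LIM domain scaffold protein best known from muscle, was at 112, 121, 143 and 132 CPM in Veh HPD and at 525, 500.3, 473 and 339 CPM in Cort HPD (log2 fold change 1.85, SE 0.14, edgeR adjusted p = 1.9e-09). The lowest Cort HPD library stood well above the highest Veh HPD library for both. Hp (ENSMUSG00000031722, chr8:109575128-109579172) encodes haptoglobin, the plasma protein that binds free haemoglobin, and was at 1579, 1100.3, 1769 and 2105 CPM in Veh HPD and at 7338, 6568, 7741 and 7062 CPM in Cort HPD (log2 fold change 2.14, SE 0.17, edgeR adjusted p = 1.9e-09). Serpina3n (ENSMUSG00000021091, chr12:104406729-104414329), an inhibitor of serine proteases, was at 256, 207, 288 and 226 CPM in Veh HPD and at 761, 805, 742 and 644 CPM in Cort HPD (log2 fold change 1.60, SE 0.13, edgeR adjusted p = 1.9e-09). Prdx6 (ENSMUSG00000026701, chr1:161240112-161251219), a peroxiredoxin that reduces lipid peroxides, was at 356, 414, 383 and 651 CPM in Veh HPD and at 1872, 1579.5, 1973 and 1689 CPM in Cort HPD (log2 fold change 1.98, SE 0.16, edgeR adjusted p = 1.9e-09). Veh HPD replicate 4 was the highest of its group for Hp and Prdx6 and still lay below all Cort HPD libraries.

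Lox (ENSMUSG00000024529, chr18:52516067-52529867), the lysyl oxidase that cross-links collagen and elastin, was at 43.1, 58.4, 70.8 and 48.8 CPM in Veh HPD and at 214, 198, 259.5 and 181 CPM in Cort HPD (log2 fold change 1.95, SE 0.16, edgeR adjusted p = 2.8e-09). Cryab (ENSMUSG00000032060, chr9:50751325-50756636), a small heat shock protein, was at 86.9, 123, 173 and 76.4 CPM in Veh HPD and at 588, 562, 627 and 534 CPM in Cort HPD (log2 fold change 2.34, SE 0.18, edgeR adjusted p = 6.9e-09). The lowest Cort HPD library was again far above the highest Veh HPD library for each. Cdr2 (ENSMUSG00000030878, chr7:120957036-120982312), a coiled-coil protein, was at 48.1, 42.1, 46.9 and 38.4 CPM in Veh HPD and at 154, 114, 149 and 106 CPM in Cort HPD (log2 fold change 1.58, SE 0.15, edgeR adjusted p = 3.9e-08). Aldh1a1 (ENSMUSG00000053279, chr19:20492715-20643465), which makes retinoic acid from retinaldehyde, was at 134, 185, 180.4 and 148 CPM in Veh HPD and at 391, 381, 443 and 420.0 CPM in Cort HPD (log2 fold change 1.34, SE 0.13, edgeR adjusted p = 1.0e-07). Tmem176a (ENSMUSG00000023367, chr6:48840919-48847071) and Tmem176b are neighbouring genes for ion channels of immune and other cells. Tmem176a was at 43.7, 34.8, 57.5 and 48.9 CPM in Veh HPD and at 163, 138, 152 and 166 CPM in Cort HPD (log2 fold change 1.75, SE 0.14, edgeR adjusted p = 3.8e-09). Tmem176b (ENSMUSG00000029810, chr6:48833818-48841496) was at 107, 110.5, 133 and 153 CPM in Veh HPD and at 338, 304, 334 and 384 CPM in Cort HPD (log2 fold change 1.44, SE 0.13, edgeR adjusted p = 1.4e-08). The annotation places both on opposite strands. They overlap only where both genes start, away from the 3′ ends that QuantSeq libraries count. The sources used here do not state whether strand was used in counting, and whether their values share reads was not tested. Each of these genes kept their call in each omission of 1 library.

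Among the genes that fell with the smallest p, 3 encode chains of MHC class II, which presents peptides to CD4 T cells and is given below with its list. Retnla (ENSMUSG00000061100, chr16:48842551-48844461), the resistin-like product of alternatively activated macrophages, was at 1029.6, 865, 1189 and 748 CPM in Veh HPD and at 226, 181, 203 and 242 CPM in Cort HPD (log2 fold change -2.17, SE 0.18, edgeR adjusted p = 1.4e-08). Fcrls (ENSMUSG00000015852, chr3:87250758-87263738), a receptor of tissue macrophages and microglia, was at 34.9, 26.9, 37 and 23.2 CPM in Veh HPD and at 7.01, 7.79, 7.24 and 6.59 CPM in Cort HPD (log2 fold change -2.09, SE 0.26, edgeR adjusted p = 7.4e-06). Lgals3bp (ENSMUSG00000033880, chr11:118392751-118402092), a secreted scavenger receptor domain protein that binds galectins, was at 222, 174, 184 and 251 CPM in Veh HPD and at 84.1, 105, 105 and 81.7 CPM in Cort HPD (log2 fold change -1.14, SE 0.16, edgeR adjusted p = 2.8e-05). For each of the 3 the highest Cort HPD library lay below the lowest Veh HPD library. Clec3b (ENSMUSG00000025784, chr9:123150946-123157432), which encodes tetranectin, was at 61.7, 60.9, 93.9 and 69.2 CPM in Veh HPD and at 23.9, 19.4, 25 and 27.5 CPM in Cort HPD (log2 fold change -1.57, SE 0.15, edgeR adjusted p = 1.1e-07). Ltbp4 (ENSMUSG00000040488, chr7:27305136-27337692), which holds latent TGF-β in the matrix, was at 96.9, 124, 119 and 80.1 CPM in Veh HPD and at 42.4, 46.4, 47.2 and 47.9 CPM in Cort HPD (log2 fold change -1.19, SE 0.14, edgeR adjusted p = 4.1e-06). Prss23 (ENSMUSG00000039405, chr7:89507783-89527187), a secreted serine protease, was at 85.3, 96, 104 and 83.8 CPM in Veh HPD and at 49.9, 46.2, 35.4 and 31.8 CPM in Cort HPD (log2 fold change -1.17, SE 0.14, edgeR adjusted p = 2.7e-06). Aqp7 and Igf1 are described with lipolysis and with the secreted hormones. Rhoj (ENSMUSG00000046768, chr12:75308322-75401456), a small GTPase found in endothelium, was at 131, 116, 103 and 109 CPM in Veh HPD and at 59.3, 71.3, 47.4 and 62.3 CPM in Cort HPD (log2 fold change -0.93, SE 0.13, edgeR adjusted p = 2.9e-05), the smallest change of the 12. These genes also kept their call in each omission of 1 library.

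**Figure D3:**
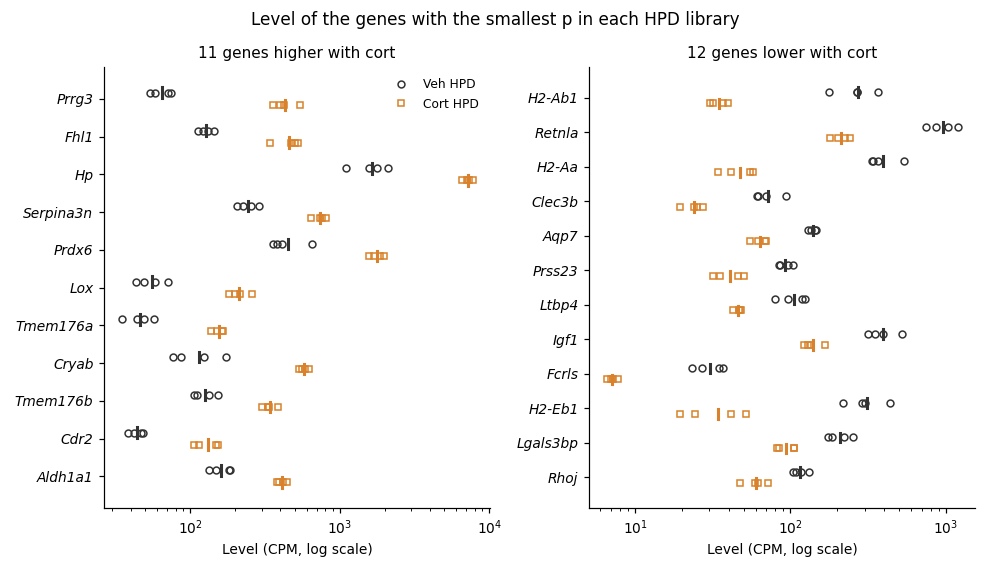
Level (CPM, log axis) of 11 risen and 12 fallen genes that had the smallest p-values among called genes without overlap, in each Veh HPD library (circles) and Cort HPD library (squares), with the group mean as a vertical bar. By the rule that chose them, the groups do not overlap for any of the 23 genes.

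The promoter windows of the first 3 risen and the first 3 fallen genes of these that have one in the RefSeq table are shown to let the start regions of genes that moved most clearly be compared. Each window runs from 250 bases before to 50 after a start site on build GRCm38.p6, 5′ to 3′ on the strand of the gene. Prrg3, Fhl1 and Aqp7 have 2 windows each, of which 1 is shown. The window shown for Fhl1 lies inside the annotated gene. Capitals mark the half-site of the glucocorticoid response element (AGAACA, or TGTTCT on the other strand) and the CCAAT box (CCAAT or ATTGG, a motif added after the data were seen).
Prrg3 (chrX:71962375-71962674, + strand): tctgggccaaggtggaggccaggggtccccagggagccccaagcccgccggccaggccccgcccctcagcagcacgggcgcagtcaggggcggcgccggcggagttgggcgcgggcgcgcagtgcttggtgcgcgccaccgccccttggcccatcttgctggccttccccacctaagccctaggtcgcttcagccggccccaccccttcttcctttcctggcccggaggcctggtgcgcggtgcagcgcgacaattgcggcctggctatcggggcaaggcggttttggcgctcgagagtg
Fhl1 (chrX:56779433-56779732, + strand): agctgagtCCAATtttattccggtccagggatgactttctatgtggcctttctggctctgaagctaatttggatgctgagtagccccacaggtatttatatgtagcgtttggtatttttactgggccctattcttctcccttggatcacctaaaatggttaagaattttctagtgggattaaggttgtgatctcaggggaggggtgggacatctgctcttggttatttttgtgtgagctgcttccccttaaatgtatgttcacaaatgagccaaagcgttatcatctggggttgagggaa
Serpina3n (chr12:104406458-104406757, + strand): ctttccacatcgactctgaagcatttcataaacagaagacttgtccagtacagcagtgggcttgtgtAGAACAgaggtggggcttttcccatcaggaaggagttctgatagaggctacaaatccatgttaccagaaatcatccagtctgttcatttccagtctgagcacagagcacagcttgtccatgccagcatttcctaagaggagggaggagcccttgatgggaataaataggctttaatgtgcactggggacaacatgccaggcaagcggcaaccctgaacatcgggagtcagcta
Retnla (chr16:48842359-48842658, + strand): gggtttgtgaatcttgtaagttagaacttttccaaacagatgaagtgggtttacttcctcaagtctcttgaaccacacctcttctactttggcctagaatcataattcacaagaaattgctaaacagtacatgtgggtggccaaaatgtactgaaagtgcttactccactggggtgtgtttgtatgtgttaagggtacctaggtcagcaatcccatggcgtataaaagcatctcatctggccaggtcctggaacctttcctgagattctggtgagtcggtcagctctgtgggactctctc
H2-Aa (chr17:34287774-34288073, - strand): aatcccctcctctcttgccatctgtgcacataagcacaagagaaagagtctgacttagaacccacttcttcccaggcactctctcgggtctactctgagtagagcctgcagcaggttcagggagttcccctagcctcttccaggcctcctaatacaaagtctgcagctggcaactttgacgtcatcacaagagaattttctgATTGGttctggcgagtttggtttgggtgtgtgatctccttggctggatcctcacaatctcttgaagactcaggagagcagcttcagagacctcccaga
Aqp7 (chr4:41048087-41048386, - strand): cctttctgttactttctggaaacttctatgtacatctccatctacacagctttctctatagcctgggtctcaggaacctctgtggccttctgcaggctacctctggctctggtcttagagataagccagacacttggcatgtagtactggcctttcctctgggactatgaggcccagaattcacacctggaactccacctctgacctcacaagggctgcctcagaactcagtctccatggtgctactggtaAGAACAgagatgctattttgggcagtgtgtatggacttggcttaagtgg
The half-site was found in the windows shown for Serpina3n and Aqp7, which moved in opposite directions, and in none of the other 4 shown. Of the 12 risen genes of smallest p, 7 had a window, and 1 of their 13 windows (7.69%) held the half-site. Of the 12 that fell, 10 had one, and 3 of their 19 windows (15.8%) held it, against 19.0% of all 32851 windows. The inverted repeat of the half-site with a gap of 3 bases (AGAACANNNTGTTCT) was in 0 of these windows and in 0.00913% of all. The E-box CACGTG was in 0 of them and in 7.15% of all, and the CCAAT box in 23.1% of the windows of risen genes, 26.3% of those of fallen genes and 37.4% of all. These letters are a description of the windows and not sites of binding.

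The largest fitted changes among called genes with a mean level of at least 10 CPM over the 8 libraries were in Prrg3, Serpina3m and the class II genes, given with their groups, and in the 4 genes that follow. Hspb7 (ENSMUSG00000006221, chr4:141420779-141425311), a small heat shock protein of heart and muscle, was at 3.87, 21.9, 7.58 and 17 CPM in Veh HPD and at 140.5, 155, 217 and 216 CPM in Cort HPD (log2 fold change 3.85, SE 0.64, edgeR adjusted p = 0.0031). Pabpc1l (ENSMUSG00000054582, chr2:164025450-164050538), a poly(A)-binding protein best known from oocytes, was at 3.42, 7.83, 11.6 and 4.54 CPM in Veh HPD and at 45.6, 53, 85.1 and 91 CPM in Cort HPD (log2 fold change 3.33, SE 0.39, edgeR adjusted p = 1.1e-04). Chil3 (ENSMUSG00000040809, chr3:106147554-106167564), the chitinase-like lectin Ym1 of macrophages, was at 2.60, 0.574, 0 and 2.27 CPM in Veh HPD and at 25, 20.5, 19.7 and 19.7 CPM in Cort HPD (log2 fold change 3.98, SE 0.92, edgeR adjusted p = 0.023). Its cort libraries lay within a narrow band. The call of Chil3 was lost without Veh HPD replicate 2, or Cort HPD replicate 1 (log2 fold change 3.57 to 4.51 over the 8 omissions). Retnla and Chil3, both known as products of alternatively activated macrophages, thus moved in opposite directions. At the other end, Cox8b (ENSMUSG00000025488, chr7:140898945-140900446), a cytochrome oxidase subunit of brown fat and muscle, was at 16.9, 11.3, 11.3 and 44.4 CPM in Veh HPD and at 4.27, 4.74, 3.25 and 3.49 CPM in Cort HPD (log2 fold change -2.41, SE 0.37, edgeR adjusted p = 2.2e-04). It was lower in each Cort HPD library than in any Veh HPD library, and Veh HPD replicate 4 was the highest. The log2 fold change of Cox8b was -2.62 to -1.74 over the 8 omissions, the last without that library, and -1.69 without both replicates 4.

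The glucocorticoid receptor gene Nr3c1 (ENSMUSG00000024431, chr18:39410545-39519421) was at 172, 114, 142 and 142 CPM in Veh HPD and at 113, 134, 120.0 and 105 CPM in Cort HPD (log2 fold change -0.27, edgeR adjusted p = 0.26), with overlap. Of the 19 receptor targets tested from a list of 20, 2 rose, 3 fell and 14 did not pass (2 higher and 2 lower without Cort HPD replicate 4, 3 higher without Veh HPD replicate 4 and 1 higher without Veh HPD replicate 1 or 3 or Cort HPD replicate 3), with a median log2 fold change of 0.15. The metallothioneins, which bind zinc and copper, were the 2 that rose. Mt1 (ENSMUSG00000031765, chr8:94179082-94180327) was at 548, 1201, 610.4 and 1192 CPM in Veh HPD and at 3384, 2863, 4097 and 2901 CPM in Cort HPD (log2 fold change 1.90, SE 0.33, edgeR adjusted p = 0.0031). Mt2 (ENSMUSG00000031762, chr8:94172664-94173568) was at 248, 858, 322 and 700.2 CPM in Veh HPD and at 2051, 1655, 2334 and 1647 CPM in Cort HPD (log2 fold change 1.86, SE 0.42, edgeR adjusted p = 0.02). The call of Mt2 was lost without Veh HPD replicate 1 or 3, or Cort HPD replicate 3 (log2 fold change 1.62 to 2.18 over the 8 omissions). Sgk1 (ENSMUSG00000019970, chr10:21882184-21999903), a kinase that regulates sodium channels, was at 52.4, 84.1, 28.4 and 56.6 CPM in Veh HPD and at 18.9, 27.7, 25.3 and 28.6 CPM in Cort HPD (log2 fold change -1.14, SE 0.26, edgeR adjusted p = 0.011). Veh HPD replicate 3 lay within the range of the cort libraries, and the other veh libraries above it. Nfkbia (ENSMUSG00000021025, chr12:55489410-55492647), the inhibitor of NF-κB, was at 374, 495, 304 and 468 CPM in Veh HPD and at 266, 248, 253 and 226 CPM in Cort HPD (log2 fold change -0.72, SE 0.15, edgeR adjusted p = 0.0023). Zbtb16, a transcription factor that glucocorticoids are known to induce in other tissues, had means of 96.7 ± 39.1 CPM in Veh HPD and 41.1 ± 14 CPM in Cort HPD (log2 fold change -1.24, edgeR adjusted p = 0.043). The call of Zbtb16 was kept in only 2 of 8 omissions, those of Veh HPD replicate 1 and Cort HPD replicate 2 (log2 fold change -1.41 to -0.97). The targets Fkbp5 (log2 fold change 0.60, edgeR adjusted p = 0.45), Tsc22d3 (log2 fold change 0.35, edgeR adjusted p = 0.64), Per1 (log2 fold change -0.75, edgeR adjusted p = 0.28) and Pdk4 (log2 fold change 0.17, edgeR adjusted p = 0.95) did not pass. Fkbp5, the receptor's cochaperone, was at 41.7, 144, 45.5 and 153 CPM in Veh HPD and at 122, 143, 143 and 174 CPM in Cort HPD, with overlap at Veh HPD replicates 2 and 4.

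Of the 13 genes tested for corticosteroid receptors and steroid handling, 1 rose and 12 did not pass (median 0.08; 1 higher and 0 lower without Cort HPD replicate 4). Over all genes tested, 3.42% rose. Hsd11b1 (ENSMUSG00000016194, chr1:193221634-193264075), the 11β-hydroxysteroid dehydrogenase that regenerates active glucocorticoid, was at 107, 122, 95.7 and 328 CPM in Veh HPD and at 535, 405, 418 and 347 CPM in Cort HPD (log2 fold change 1.39, SE 0.33, edgeR adjusted p = 0.025). Veh HPD replicate 4 stood far above the other veh libraries, and the lowest Cort HPD library, replicate 4, was only just above it. The call was kept in only 3 of 8 omissions, those of Veh HPD replicate 4 and Cort HPD replicates 2 and 4 (log2 fold change 1.20 to 1.98, the latter without Veh HPD replicate 4). The mineralocorticoid receptor gene Nr3c2 (log2 fold change 0.52, edgeR adjusted p = 0.79) and H6pd (log2 fold change 0.21, edgeR adjusted p = 0.45), which supplies the cofactor of that enzyme, did not pass.

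Acute phase proteins rise in plasma in inflammation and are made in fat as well as in liver. Of the 9 tested from a list of 16, 5 rose and 4 did not pass, with a median log2 fold change of 1.33, and the same number rose in each omission of 1 library. Hp and Serpina3n are given above. Serpina3m (ENSMUSG00000079012, chr12:104338486-104394257), a further serine protease inhibitor, was at 4.76, 2.92, 2.99 and 7.39 CPM in Veh HPD and at 33.3, 34.3, 45.6 and 47.7 CPM in Cort HPD (log2 fold change 3.17, SE 0.29, edgeR adjusted p = 2.7e-07). Orm1 (ENSMUSG00000039196, chr4:63344560-63348163), the orosomucoid that carries basic drugs in plasma, was at 145, 161, 214 and 105 CPM in Veh HPD and at 384, 428, 396 and 360.2 CPM in Cort HPD (log2 fold change 1.33, SE 0.15, edgeR adjusted p = 1.3e-06). Its paralog Orm3 had means of 47.6 ± 11.6 CPM in Veh HPD and 113 ± 23.6 CPM in Cort HPD (log2 fold change 1.25, edgeR adjusted p = 4.8e-05). The Cort HPD libraries lay above all Veh HPD libraries for each of Hp, Serpina3n, Serpina3m and Orm1. Reads of the Serpina3 and Orm paralogs may have been split between near copies. Saa3, a serum amyloid A gene (log2 fold change -0.34, edgeR adjusted p = 0.86) and Cp, which encodes ceruloplasmin (log2 fold change -0.16, edgeR adjusted p = 0.56), did not pass. The hepatocyte marker Alb, which would mark liver RNA, had means of 51.3 ± 17.5 CPM in Veh HPD and 62.7 ± 15.6 CPM in Cort HPD (log2 fold change 0.29, edgeR adjusted p = 0.5).

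MHC class II genes had the lowest median of the 30 lists, -2.30 over the 11 tested of 13. In all, 6 fell, 0 rose and 5 did not pass, and 6 fell in each omission of 1 library. H2-Ab1 (ENSMUSG00000073421, chr17:34257689-34269419), the β chain of I-A, was at 268, 269, 366 and 178 CPM in Veh HPD and at 31.8, 30.2, 39.4 and 37 CPM in Cort HPD (log2 fold change -2.96, SE 0.17, edgeR adjusted p = 4.5e-12). H2-Aa (ENSMUSG00000036594, chr17:34282744-34287823), its α chain, was at 339.5, 364, 538 and 334 CPM in Veh HPD and at 34, 41.6, 55.2 and 57.8 CPM in Cort HPD (log2 fold change -3.05, SE 0.22, edgeR adjusted p = 1.9e-08). H2-Eb1 (ENSMUSG00000060586, chr17:34305867-34316674), the β chain of I-E, was at 301, 287, 439 and 217 CPM in Veh HPD and at 19.4, 24.2, 41.5 and 51.9 CPM in Cort HPD (log2 fold change -3.17, SE 0.30, edgeR adjusted p = 1.7e-05). In each case the group ranges were far apart. Cd74 (ENSMUSG00000024610, chr18:60803848-60812652), the invariant chain that guides class II molecules, was at 267, 278, 341 and 214 CPM in Veh HPD and at 31.1, 22.8, 44.2 and 67.2 CPM in Cort HPD (log2 fold change -2.72, SE 0.31, edgeR adjusted p = 1.1e-04). Cort HPD replicate 4 held the highest cort level of the last 3 genes, and without it their log2 fold changes were -3.17, -3.45 and -3.06. The peptide exchange factors H2-DMa (means of 28.6 ± 8.93 CPM in Veh HPD and 7.87 ± 4.61 CPM in Cort HPD, log2 fold change -1.83, edgeR adjusted p = 7.6e-04) and H2-DMb1 (24.9 ± 6.03 CPM in Veh HPD and 8.76 ± 3.49 CPM in Cort HPD, log2 fold change -1.49, edgeR adjusted p = 3.5e-04) fell as well. The class II transactivator Ciita (log2 fold change -3.02, edgeR adjusted p = 0.13) was low in all libraries and did not pass. The lysosomal protease Ctss (log2 fold change -0.26, edgeR adjusted p = 0.37) and the thiol reductase Ifi30 (log2 fold change 0.01, edgeR adjusted p = 0.98), which act on peptides before loading, did not pass either. The summed levels of B cell markers were at most 4.28 CPM in any of the 8 libraries.

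MHC class I genes and the immunoproteasome, which cuts the peptides for it, had a median of -0.70, with 6 of the 15 tested lower and 0 higher (0 higher and 3 lower without Cort HPD replicate 4, and also 3 lower without Cort HPD replicate 1). Psmb8 (ENSMUSG00000024338, chr17:34197721-34201454), a catalytic subunit, was at 63.7, 37.4, 49.4 and 64 CPM in Veh HPD and at 19, 21.7, 20.5 and 23.8 CPM in Cort HPD (log2 fold change -1.33, SE 0.20, edgeR adjusted p = 1.3e-04). Psmb9 (ENSMUSG00000096727, chr17:34181987-34187764), another, was at 30.2, 22.2, 25.6 and 38.2 CPM in Veh HPD and at 15.4, 17.3, 9.90 and 9.95 CPM in Cort HPD (log2 fold change -1.15, SE 0.26, edgeR adjusted p = 0.0059). It overlaps Tap1 on the other strand, only where both genes start. Tap1 had a like number of counts and did not pass (log2 fold change -0.70, edgeR adjusted p = 0.054). The class I heavy chain H2-K1 (ENSMUSG00000061232, chr17:33996017-34000347) was at 820.1, 677, 793 and 786 CPM in Veh HPD and at 479.5, 421, 458 and 475 CPM in Cort HPD (log2 fold change -0.74, SE 0.14, edgeR adjusted p = 0.0014). Class I genes are near copies of each other, and H2-Q4 (means of 8.0 ± 1.36 CPM in Veh HPD and 2.99 ± 1.57 CPM in Cort HPD, log2 fold change -1.40, edgeR adjusted p = 0.025) had a call lost without Veh HPD replicate 1, or Cort HPD replicate 1, 2 or 4 (log2 fold change -1.81 to -1.18 over the 8 omissions). Psmb10, a further immunoproteasome subunit, and Erap1, the peptidase that trims peptides, were the others that fell. The means of Psmb10 were 35.2 ± 8.64 CPM in Veh HPD and 23.2 ± 1.38 CPM in Cort HPD (log2 fold change -0.60, edgeR adjusted p = 0.027). The call of Psmb10 was kept in only 3 of 8 omissions, those of Veh HPD replicates 2 and 3 and Cort HPD replicate 2 (log2 fold change -0.74 to -0.45). The means of Erap1 were 23.1 ± 4.72 CPM in Veh HPD and 13.3 ± 3.89 CPM in Cort HPD (log2 fold change -0.80, edgeR adjusted p = 0.028). The call of Erap1 was kept in only 3 of 8 omissions, those of Veh HPD replicates 1 and 4 and Cort HPD replicate 2 (log2 fold change -1.0 to -0.67). The light chain B2m (log2 fold change -0.34, edgeR adjusted p = 0.15) did not pass.

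Interferon-stimulated genes had a median of -0.46, with 3 of 24 tested lower and 0 higher (0 higher and 3 lower without Cort HPD replicate 4). Ifi27l2a (ENSMUSG00000079017, chr12:103442167-103443680), an interferon-inducible mitochondrial protein, was at 1887, 1149, 1554 and 1561 CPM in Veh HPD and at 532, 359, 426 and 278 CPM in Cort HPD (log2 fold change -1.94, SE 0.39, edgeR adjusted p = 0.01). Cxcl9 (ENSMUSG00000029417, chr5:92321347-92328079), a chemokine for T cells that interferon-γ induces, was at 66.7, 48.9, 64.2 and 41.1 CPM in Veh HPD and at 14.9, 25.4, 21.6 and 16.7 CPM in Cort HPD (log2 fold change -1.49, SE 0.25, edgeR adjusted p = 7.9e-04). Gbp3, a guanylate-binding GTPase, had means of 18.2 ± 8.15 CPM in Veh HPD and 8.12 ± 0.967 CPM in Cort HPD (log2 fold change -1.16, edgeR adjusted p = 0.01). The call of Gbp3 was lost without Veh HPD replicate 1 (log2 fold change -1.35 to -0.94 over the 8 omissions). Isg15 (log2 fold change -0.16, edgeR adjusted p = 0.86) and Ifit3 (log2 fold change -0.46, edgeR adjusted p = 0.43), genes that type I interferon is known to raise, did not pass.

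The macrophage and dendritic cell list did not move as a block. Of 26 tested, 7 fell, 2 rose and 17 did not pass (median -0.50; 2 higher and 3 lower without Cort HPD replicate 4). The count of lower genes was 2 without Veh HPD replicate 1, and it was 7 without Veh HPD replicate 4. Ccr2 (ENSMUSG00000049103, chr9:124101950-124113557), the chemokine receptor of inflammatory monocytes, was at 48.6, 47.7, 97.2 and 34.5 CPM in Veh HPD and at 21.8, 20.5, 16.4 and 17.7 CPM in Cort HPD (log2 fold change -1.57, SE 0.28, edgeR adjusted p = 0.0022). Mgl2 (ENSMUSG00000040950, chr11:70130329-70137550), a lectin of macrophages and dendritic cells, was at 85.2, 56.3, 68.1 and 53.4 CPM in Veh HPD and at 46, 46.1, 47 and 36.5 CPM in Cort HPD (log2 fold change -0.58, SE 0.14, edgeR adjusted p = 0.013). The call of Mgl2 was lost without Veh HPD replicate 1 (log2 fold change -0.67 to -0.43 over the 8 omissions). Adgre1 (F4/80), a general macrophage marker, had means of 37.4 ± 8.14 CPM in Veh HPD and 24.5 ± 3.57 CPM in Cort HPD (log2 fold change -0.61, edgeR adjusted p = 0.026). The call of Adgre1 was lost without Veh HPD replicate 1 or 3, or Cort HPD replicate 3 or 4 (log2 fold change -0.71 to -0.46 over the 8 omissions). The mannose receptor Mrc1 had means of 99.4 ± 13.1 CPM in Veh HPD and 69.8 ± 12.7 CPM in Cort HPD (log2 fold change -0.51, edgeR adjusted p = 0.033). The call of Mrc1 was kept in only 2 of 8 omissions, those of Veh HPD replicate 4 and Cort HPD replicate 1 (log2 fold change -0.61 to -0.40). Irf8, a transcription factor of dendritic cells, had means of 29.8 ± 6.28 CPM in Veh HPD and 20.2 ± 1.90 CPM in Cort HPD (log2 fold change -0.56, edgeR adjusted p = 0.038). The call of Irf8 was kept in only 1 of 8 omissions, that of Veh HPD replicate 4 (log2 fold change -0.69 to -0.46). Clec9a, a receptor of cross-presenting dendritic cells, was at 1.84, 0.678, 1.53 and 1.69 CPM in Veh HPD and at 0 in all Cort HPD libraries, and its call was lost without Veh HPD replicate 1 or any one of the cort libraries. Retnla, given above, was the seventh that fell. Against them, Cd68 (ENSMUSG00000018774, chr11:69664213-69666153), a lysosomal glycoprotein of macrophages, rose from 27.2, 36.2, 34.6 and 19 CPM in Veh HPD to 47.2, 58.6, 55.9 and 44.6 CPM in Cort HPD (log2 fold change 0.82, SE 0.18, edgeR adjusted p = 0.0061). The folate receptor Folr2 also rose (53.3 ± 9.60 CPM in Veh HPD and 74.2 ± 10.7 CPM in Cort HPD, log2 fold change 0.48, edgeR adjusted p = 0.045). The call of Folr2 was kept in only 2 of 8 omissions, those of Veh HPD replicate 3 and Cort HPD replicate 4 (log2 fold change 0.41 to 0.61). The general markers Csf1r (log2 fold change -0.11, edgeR adjusted p = 0.71), Cd163 (log2 fold change -0.27, edgeR adjusted p = 0.31) and Lyve1 (log2 fold change 0.09, edgeR adjusted p = 0.86) did not pass. Of the lymphocyte list, 13 of 24 genes were tested (1 was set aside and the others had too few counts), and 0 were called in edgeR (median -0.94), with 4 at an unadjusted p under 0.05 and 0 called in DESeq2 or limma voom.

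Of 23 chemokines and cytokines tested, 4, all of them chemokines, fell and 0 rose (median -0.40; 0 higher and 3 lower without Cort HPD replicate 4). Ccl8 (ENSMUSG00000009185, chr11:82115185-82116799), a product of resident macrophages, was at 12.9, 15.5, 23.7 and 8.95 CPM in Veh HPD and at 4.35, 3.79, 3.59 and 1.39 CPM in Cort HPD (log2 fold change -2.22, SE 0.33, edgeR adjusted p = 8.3e-05). Cxcl12 (ENSMUSG00000061353, chr6:117168535-117181367), made by stromal cells, was at 109, 80.4, 74.2 and 56.8 CPM in Veh HPD and at 43.3, 24.9, 41.8 and 33.5 CPM in Cort HPD (log2 fold change -1.15, SE 0.20, edgeR adjusted p = 7.6e-04). Ccl5 (ENSMUSG00000035042, chr11:83525778-83530518), a chemokine for T cells, was at 9.07, 5.90, 13.8 and 4.93 CPM in Veh HPD and at 2.18, 1.37, 1.73 and 1.97 CPM in Cort HPD (log2 fold change -2.20, SE 0.45, edgeR adjusted p = 0.0027). No library of one group reached the range of the other for these 3. Ccl11, the eosinophil chemokine, had means of 41.5 ± 15.2 CPM in Veh HPD and 13.2 ± 1.74 CPM in Cort HPD (log2 fold change -1.66, edgeR adjusted p = 0.034). The call of Ccl11 was kept in only 2 of 8 omissions, those of Veh HPD replicates 1 and 4 (log2 fold change -1.79 to -1.39). The cytokines Il1b and Tnf were below 1 CPM on average in both groups and did not pass, and Il6 had too few counts for the test. In the list of Toll-like receptors and NF-κB signaling, 18 of 21 did not pass (median -0.21; 0 higher and 1 lower without Cort HPD replicate 4). Over the 8 omissions 0 to 1 were higher and 1 to 3 lower, with 3 lower without Veh HPD replicate 4. Beside Nfkbia, Tnip1 fell (log2 fold change -0.53, edgeR adjusted p = 0.05, just under the threshold before rounding) and the call was kept in only 1 of 8 omissions, that of Veh HPD replicate 4 (log2 fold change -0.57 to -0.50). Nfkbib rose (log2 fold change 0.63, edgeR adjusted p = 0.046). It overlaps Sirt2 on the other strand only where both genes start, away from the 3′ ends that QuantSeq libraries count. Whether they share reads was not tested. The call of Nfkbib was kept in only 2 of 8 omissions, those of Veh HPD replicate 4 and Cort HPD replicate 2 (log2 fold change 0.51 to 0.82).

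Complement genes, many of which adipocytes make, fell in 8 of 24 cases, and 1 coagulation gene rose (5 lower and 1 higher without Cort HPD replicate 4, and the same without Veh HPD replicate 1 or 3). The median of -0.13 hid this split. Cfd (ENSMUSG00000061780, chr10:79890853-79892655), adipsin, which cleaves factor B in the alternative pathway, was at 12762, 10619.9, 9326 and 19557 CPM in Veh HPD and at 3127, 2818, 2546 and 2708 CPM in Cort HPD (log2 fold change -2.22, SE 0.36, edgeR adjusted p = 0.0025). It lay several times lower in each Cort HPD library than in any Veh HPD library. C2 (ENSMUSG00000024371, chr17:34862604-34898265), of the classical pathway, was at 178, 124, 162 and 114 CPM in Veh HPD and at 53.9, 53.7, 62.4 and 54.9 CPM in Cort HPD (log2 fold change -1.36, SE 0.20, edgeR adjusted p = 1.8e-04). C4b (ENSMUSG00000073418, chr17:34728380-34743882), with its near copy C4a, was at 236, 224, 332 and 125 CPM in Veh HPD and at 118, 112, 103 and 64 CPM in Cort HPD (log2 fold change -1.20, SE 0.23, edgeR adjusted p = 0.0031). C1ra (ENSMUSG00000055172, chr6:124512405-124523443), a protease of the first component, was at 75.3, 74.5, 79.4 and 62.4 CPM in Veh HPD and at 38.6, 35.6, 39.9 and 46.7 CPM in Cort HPD (log2 fold change -0.85, SE 0.14, edgeR adjusted p = 3.2e-04). C3, the central component, had means of 525 ± 123 CPM in Veh HPD and 326 ± 64.8 CPM in Cort HPD (log2 fold change -0.68, edgeR adjusted p = 0.023). The call of C3 was kept in only 3 of 8 omissions, those of Veh HPD replicates 2 and 3 and Cort HPD replicate 1 (log2 fold change -0.82 to -0.52). C1s1, the partner protease of C1ra, had means of 130.3 ± 29.3 CPM in Veh HPD and 89.2 ± 13.8 CPM in Cort HPD (log2 fold change -0.54, edgeR adjusted p = 0.023). The call of C1s1 was lost without Veh HPD replicate 1, 2 or 3, or Cort HPD replicate 4 (log2 fold change -0.69 to -0.44 over the 8 omissions). Cfb, factor B, had means of 70.5 ± 14.4 CPM in Veh HPD and 49.5 ± 3.13 CPM in Cort HPD (log2 fold change -0.51, edgeR adjusted p = 0.028). The call of Cfb was kept in only 3 of 8 omissions, those of Veh HPD replicates 2 and 4 and Cort HPD replicate 2 (log2 fold change -0.57 to -0.35). Cfp, properdin, had means of 57.4 ± 10.6 CPM in Veh HPD and 36.6 ± 5.13 CPM in Cort HPD (log2 fold change -0.65, edgeR adjusted p = 0.012). The call of Cfp was lost without Veh HPD replicate 3 (log2 fold change -0.74 to -0.53 over the 8 omissions). The macrophage genes C1qa (log2 fold change 0.23, edgeR adjusted p = 0.37), C1qb (log2 fold change 0.18, edgeR adjusted p = 0.51) and C1qc (log2 fold change 0.16, edgeR adjusted p = 0.54) did not pass. F13a1, the transglutaminase that cross-links fibrin, was the gene that rose (170.3 ± 18.6 CPM in Veh HPD and 258 ± 55.9 CPM in Cort HPD, log2 fold change 0.61, edgeR adjusted p = 0.02). The call of F13a1 was lost without Veh HPD replicate 2 or 4, or Cort HPD replicate 1 or 3 (log2 fold change 0.52 to 0.74 over the 8 omissions).

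**Figure D4:**
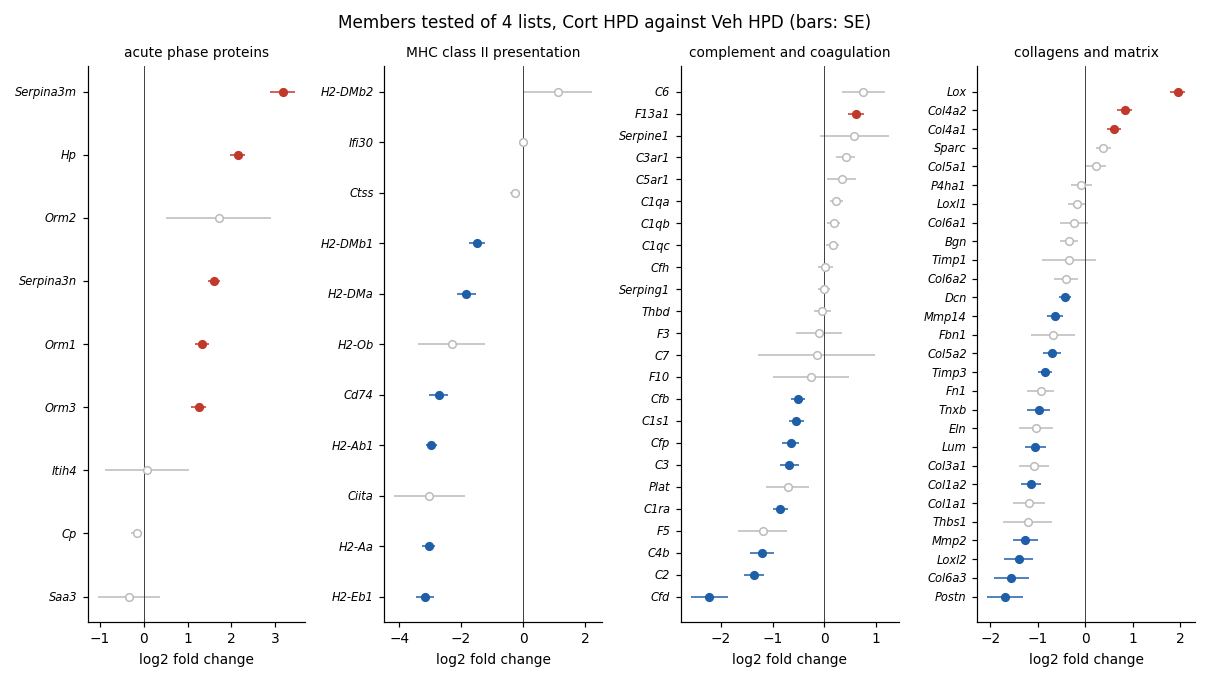
Log2 fold change of Cort HPD against Veh HPD with its SE for each tested member of the acute phase, MHC class II, complement and coagulation, and matrix lists. Filled points passed the test (red higher, blue lower) and open grey points did not; in the matrix list Lox, Col4a2 and Col4a1 lay on the upper side and 11 others on the lower.

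Of 16 adipokines and other secreted hormones tested, 2 were higher and 3 lower (median 0.04; 1 higher and 3 lower without Cort HPD replicate 4). The number lower was 5 without Veh HPD replicate 4, and the number higher was 1 in each omission of 1 library but those of Veh HPD replicates 3 and 4. Leptin, the satiety hormone (Lep, ENSMUSG00000059201, chr6:29060220-29073877), was at 370.5, 830.5, 868 and 659 CPM in Veh HPD and at 1654, 1609, 2315 and 1958 CPM in Cort HPD (log2 fold change 1.47, SE 0.37, edgeR adjusted p = 0.035). The groups did not overlap, but the spread among the veh libraries was wide and the call was lost whichever of the 8 libraries was dropped (log2 fold change 1.27 to 1.61). Adiponectin, an insulin-sensitizing hormone (Adipoq, ENSMUSG00000022878, chr16:23146536-23158028), was at 6909, 6779.8, 7958 and 10141 CPM in Veh HPD and at 5033, 4577, 4321 and 4173 CPM in Cort HPD (log2 fold change -0.81, SE 0.14, edgeR adjusted p = 6.8e-04). Agt (ENSMUSG00000031980, chr8:124556534-124569706), angiotensinogen, was at 393, 394, 329 and 814 CPM in Veh HPD and at 1259.9, 1312, 1396 and 1423 CPM in Cort HPD (log2 fold change 1.49, SE 0.27, edgeR adjusted p = 0.0031). All of its cort libraries lay above Veh HPD replicate 4, which was the highest veh library for both Adipoq and Agt. Igf1 (ENSMUSG00000020053, chr10:87858265-87937042), insulin-like growth factor 1, was at 525, 315, 395 and 349 CPM in Veh HPD and at 136, 168, 122 and 130.0 CPM in Cort HPD (log2 fold change -1.51, SE 0.18, edgeR adjusted p = 5.2e-06). Cfd, given above, was the third that fell. Resistin (Retn, log2 fold change 0.13, edgeR adjusted p = 0.73) and Rbp4 (log2 fold change 0.10, edgeR adjusted p = 0.68) did not pass.

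Among genes of lipid storage, 3 of 15 for triglyceride synthesis rose and 0 fell (median 0.19; 2 higher and 0 lower without Cort HPD replicate 4). The number was 1 without Veh HPD replicate 1, and it was 7 without Veh HPD replicate 4. Dgat2 (ENSMUSG00000030747, chr7:99153658-99182719), which adds the last fatty acid, was at 836, 544, 950.1 and 737 CPM in Veh HPD and at 1574, 1738, 1584 and 1369 CPM in Cort HPD (log2 fold change 1.03, SE 0.19, edgeR adjusted p = 0.0014). Gk (ENSMUSG00000025059, chrX:85701937-85776819), glycerol kinase, was at 3.04, 6.89, 7.21 and 5.83 CPM in Veh HPD and at 7.82, 12.1, 20.4 and 45.2 CPM in Cort HPD (log2 fold change 1.91, SE 0.46, edgeR adjusted p = 0.019). Cort HPD replicate 4, the library with epididymis RNA, was its highest, and the log2 fold change was 1.23 without it (adjusted p = 0.038). The call was lost without Veh HPD replicate 1 (log2 fold change 1.23 to 2.18 over the 8 omissions). Agpat2, which acylates lysophosphatidic acid, had means of 353 ± 117 CPM in Veh HPD and 557 ± 44.8 CPM in Cort HPD (log2 fold change 0.66, edgeR adjusted p = 0.033). The call of Agpat2 was kept in only 2 of 8 omissions, those of Veh HPD replicate 4 and Cort HPD replicate 1 (log2 fold change 0.50 to 0.87). In fatty acid synthesis, 2 of 17 rose and 1 fell (median 0.06; 2 higher and 1 lower without Cort HPD replicate 4, 0 lower without Veh HPD replicate 1 and 2 lower without Cort HPD replicate 2). Pnpla3 (ENSMUSG00000041653, chr15:84167837-84187236), a lipid droplet protein regulated with lipogenesis, was at 94.5, 54.1, 48.8 and 41.9 CPM in Veh HPD and at 139, 202, 191 and 137 CPM in Cort HPD (log2 fold change 1.49, SE 0.21, edgeR adjusted p = 1.7e-04). Mlxipl (ENSMUSG00000005373, chr5:135089890-135138382), the carbohydrate response factor ChREBP, was at 32.3, 26, 18.9 and 39.7 CPM in Veh HPD and at 53.8, 64.3, 53.4 and 47.7 CPM in Cort HPD (log2 fold change 0.91, SE 0.18, edgeR adjusted p = 0.0015). Elovl5, an elongase of polyunsaturated fatty acids, fell from 89.7, 61.1, 81.4 and 64.1 CPM in Veh HPD to 43.2, 51.6, 57.1 and 44.4 CPM in Cort HPD (log2 fold change -0.59, SE 0.14, edgeR adjusted p = 0.0087). The call of Elovl5 was lost without Veh HPD replicate 1 (log2 fold change -0.67 to -0.48 over the 8 omissions). The core enzymes Fasn (log2 fold change 0.26, edgeR adjusted p = 0.78), Acaca (log2 fold change 0.03, edgeR adjusted p = 0.97) and Scd1 (log2 fold change -0.76, edgeR adjusted p = 0.099) did not pass.

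In lipolysis, 1 of 19 rose and 2 fell (median 0.01; 1 higher and 2 lower without Cort HPD replicate 4), beside 3.42% and 2.65% of all genes tested. G0s2 (ENSMUSG00000009633, chr1:193272161-193273217), the inhibitor of adipose triglyceride lipase, was at 224, 213, 202 and 316 CPM in Veh HPD and at 779.6, 660.1, 750.2 and 617 CPM in Cort HPD (log2 fold change 1.56, SE 0.17, edgeR adjusted p = 2.4e-06). Aqp7 (ENSMUSG00000028427, chr4:41033074-41048139), the channel by which glycerol leaves adipocytes, was at 129, 135, 147 and 145 CPM in Veh HPD and at 69.7, 68.8, 62.1 and 55 CPM in Cort HPD (log2 fold change -1.12, SE 0.13, edgeR adjusted p = 1.8e-06). A window of Aqp7, with a half-site, is shown above. Cidea (ENSMUSG00000024526, chr18:67343604-67367785), a lipid droplet protein of brown fat, was at 3.36, 4.23, 2.20 and 5.32 CPM in Veh HPD and at 0, 1.37, 0.731 and 0.38 CPM in Cort HPD (log2 fold change -2.64, SE 0.61, edgeR adjusted p = 0.0082), at low counts. It overlaps a gene on the other strand only where both genes start. The log2 fold change of Cidea was -3.27 without Cort HPD replicate 2. The lipases Pnpla2 (log2 fold change 0.09, edgeR adjusted p = 0.82) and Lipe (log2 fold change 0.11, edgeR adjusted p = 0.69) and the adrenoceptor Adrb3 (log2 fold change -0.45, edgeR adjusted p = 0.092) did not pass. In lipid uptake, 2 of 14 rose and 1 fell (median 0.17; 1 higher and 1 lower without Cort HPD replicate 4). The number higher rose to 4 on leaving out Veh HPD replicate 4, and was 1 without replicate 1 or 2 of either group. Gpihbp1 (ENSMUSG00000022579, chr15:75596628-75599481), which anchors lipoprotein lipase to capillaries, was at 170.5, 223, 154 and 159 CPM in Veh HPD and at 101, 116, 109 and 90.7 CPM in Cort HPD (log2 fold change -0.76, SE 0.14, edgeR adjusted p = 9.1e-04). No library of either group lay within the range of the other. Vldlr had means of 64.4 ± 8.86 CPM in Veh HPD and 88.6 ± 10.9 CPM in Cort HPD (log2 fold change 0.46, edgeR adjusted p = 0.039). The call of Vldlr was kept in only 2 of 8 omissions, those of Veh HPD replicate 3 and Cort HPD replicate 3 (log2 fold change 0.38 to 0.53). Lpl itself (log2 fold change -0.02, edgeR adjusted p = 0.95) and Cd36 (log2 fold change -0.18, edgeR adjusted p = 0.48) did not pass.

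Cholesterol synthesis had 2 of 22 members higher and 0 lower (median 0.34), beside 3.42% of all genes tested higher. The count lay between 1 without Cort HPD replicate 4 and 5 without Veh HPD replicate 4. Hmgcs1 (ENSMUSG00000093930, chr13:119690379-119708260), which makes HMG-CoA, was at 116, 90, 142 and 78.2 CPM in Veh HPD and at 311, 284, 221 and 172 CPM in Cort HPD (log2 fold change 1.21, SE 0.20, edgeR adjusted p = 6.8e-04). Mvd, mevalonate decarboxylase, was at 3.68, 4.49, 4.03 and 4.67 CPM in Veh HPD and at 5.64, 10.8, 9.10 and 13.8 CPM in Cort HPD (log2 fold change 1.23, SE 0.30, edgeR adjusted p = 0.012). The call of Mvd was lost without Cort HPD replicate 4 (log2 fold change 1.01 to 1.42 over the 8 omissions). The regulator Srebf2 (log2 fold change -0.16, edgeR adjusted p = 0.82) did not pass.

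Glycolysis was the metabolic list with most calls, 7 of 19 higher and 0 lower (median 0.32; 6 without Cort HPD replicate 4). The number was 4 without Veh HPD replicate 2, or Cort HPD replicate 1 or 2, and it was 8 without Veh HPD replicate 4. Pfkfb3 (ENSMUSG00000026773, chr2:11471433-11554077), which makes the activator of phosphofructokinase, was at 304, 268, 226 and 358 CPM in Veh HPD and at 760.3, 655, 806 and 585 CPM in Cort HPD (log2 fold change 1.28, SE 0.17, edgeR adjusted p = 1.4e-05). Tpi1 (ENSMUSG00000023456, chr6:124810586-124814296), triose phosphate isomerase, was at 124, 101, 111 and 125 CPM in Veh HPD and at 199.6, 197, 172 and 154 CPM in Cort HPD (log2 fold change 0.65, SE 0.12, edgeR adjusted p = 7.1e-04). Hk2 (ENSMUSG00000000628, chr6:82725025-82774454), the hexokinase of insulin-sensitive tissues, was at 95.1, 110.5, 104 and 148 CPM in Veh HPD and at 179, 155, 168 and 167 CPM in Cort HPD (log2 fold change 0.55, SE 0.13, edgeR adjusted p = 0.0082). These 3 kept their call in each omission of 1 library. Gapdh was at 24.9, 24.4, 26.5 and 27.1 CPM in Veh HPD and at 37.1, 45.2, 37.6 and 33.3 CPM in Cort HPD (log2 fold change 0.58, SE 0.14, edgeR adjusted p = 0.013), and has many pseudogene copies. The call of Gapdh was lost without Cort HPD replicate 2 (log2 fold change 0.49 to 0.64 over the 8 omissions). Aldoa, an aldolase, had means of 654 ± 221 CPM in Veh HPD and 946 ± 63.2 CPM in Cort HPD (log2 fold change 0.54, edgeR adjusted p = 0.033). The call of Aldoa was kept in only 2 of 8 omissions, those of Veh HPD replicate 4 and Cort HPD replicate 4 (log2 fold change 0.43 to 0.80). Eno1, an enolase, had means of 11.8 ± 2.89 CPM in Veh HPD and 19.2 ± 3.62 CPM in Cort HPD (log2 fold change 0.71, edgeR adjusted p = 0.048). The call of Eno1 was kept in only 2 of 8 omissions, those of Veh HPD replicate 1 and Cort HPD replicate 2 (log2 fold change 0.58 to 0.87). Ldha, a lactate dehydrogenase subunit, had means of 268 ± 59.7 CPM in Veh HPD and 382 ± 41.6 CPM in Cort HPD (log2 fold change 0.51, edgeR adjusted p = 0.027). The call of Ldha was lost without Veh HPD replicate 1 or 2, or Cort HPD replicate 1 or 2 (log2 fold change 0.38 to 0.63 over the 8 omissions). The glucose transporters Slc2a4 (log2 fold change 0.44, edgeR adjusted p = 0.24) and Slc2a1 (log2 fold change 0.08, edgeR adjusted p = 0.93) did not pass.

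Fatty acid oxidation had 3 of 17 members higher and 0 lower (median 0.00; 3 higher and 0 lower without Cort HPD replicate 4, and 1 higher without Veh HPD replicate 1 or Cort HPD replicate 1). Acaa2 (ENSMUSG00000036880, chr18:74779197-74806208), the mitochondrial thiolase, was at 108, 133, 151 and 168 CPM in Veh HPD and at 285, 280.0, 296 and 293 CPM in Cort HPD (log2 fold change 1.04, SE 0.13, edgeR adjusted p = 6.8e-06). Acadm, the medium-chain dehydrogenase, was at 253, 295, 342 and 331 CPM in Veh HPD and at 501, 472, 389 and 365 CPM in Cort HPD (log2 fold change 0.50, SE 0.12, edgeR adjusted p = 0.013). The call of Acadm was lost without Veh HPD replicate 1, or Cort HPD replicate 1 (log2 fold change 0.42 to 0.57 over the 8 omissions). In amino acid catabolism 1 of 21 rose (also 1 without Cort HPD replicate 4), beside 3.42% of all genes tested. This was Pcca, a subunit of propionyl-CoA carboxylase (log2 fold change 0.51, edgeR adjusted p = 0.039), with overlap between the groups. The call of Pcca was kept in only 2 of 8 omissions, those of Veh HPD replicate 4 and Cort HPD replicate 4 (log2 fold change 0.40 to 0.73). The lists of pyruvate cycling and glyceroneogenesis (16 tested, median 0.22), insulin signaling (19, median -0.09), the unfolded protein response (18, median 0.08), the respiratory chain (20, median 0.04) and the cell cycle (20, median -0.28) had 0 calls in edgeR. Unadjusted p-values under 0.05 were found for 3, 5, 4, 0 and 4 of their genes in that order, DESeq2 called 0, 1, 1, 0 and 2, and limma voom 0 in each. Without Cort HPD replicate 4 the first of these medians was 0.08 and the last was -0.51, with 1 cell cycle gene lower and 0 calls in the other 4 lists. Without Veh HPD replicate 4, 2 genes of pyruvate cycling and 2 of the respiratory chain were higher, and 1 each of insulin signaling, the unfolded protein response and the cell cycle was lower. Pck1, the key enzyme of glyceroneogenesis that glucocorticoids are known to regulate, had means of 2023 ± 346 CPM in Veh HPD and 1610.3 ± 429.9 CPM in Cort HPD (log2 fold change -0.33, edgeR adjusted p = 0.43).

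Of 28 matrix genes tested, 11 fell and 3 rose (median -0.68; 3 higher and 7 lower without Cort HPD replicate 4). The count of lower genes ranged from 5 without Veh HPD replicate 1 to 16 without Veh HPD replicate 4. The fibrillar collagen Col1a2 had means of 685 ± 215 CPM in Veh HPD and 309.9 ± 58.6 CPM in Cort HPD (log2 fold change -1.14, edgeR adjusted p = 0.0036), and Col1a1 (log2 fold change -1.19, edgeR adjusted p = 0.059) and Col3a1 (log2 fold change -1.08, edgeR adjusted p = 0.058) did not pass. Lum (ENSMUSG00000036446, chr10:97565128-97572703), the collagen-binding proteoglycan lumican, was at 33.2, 32.9, 44.1 and 24.7 CPM in Veh HPD and at 13, 13.5, 17.3 and 20.9 CPM in Cort HPD (log2 fold change -1.05, SE 0.22, edgeR adjusted p = 0.0029). Timp3 (ENSMUSG00000020044, chr10:86300372-86349506), an inhibitor of metalloproteinases, was at 563, 630.5, 417 and 341 CPM in Veh HPD and at 266, 316, 239.6 and 257 CPM in Cort HPD (log2 fold change -0.85, SE 0.15, edgeR adjusted p = 6.3e-04). Mmp2, a gelatinase, and Loxl2, a lysyl oxidase relative, had means of 22.5 ± 5.93 CPM in Veh HPD and 9.39 ± 2.57 CPM in Cort HPD (log2 fold change -1.26, edgeR adjusted p = 0.0046) and 42.2 ± 17.2 CPM in Veh HPD and 16 ± 4.52 CPM in Cort HPD (log2 fold change -1.40, edgeR adjusted p = 0.012). Both, like Col1a2, kept their call in each omission of 1 library. Against these, the basement membrane collagen Col4a2 (ENSMUSG00000031503, chr8:11312805-11449287) was at 378, 353, 343 and 236 CPM in Veh HPD and at 572, 650.2, 601 and 504 CPM in Cort HPD (log2 fold change 0.83, SE 0.15, edgeR adjusted p = 8.8e-04), and its partner Col4a1, which starts from the same region on the other strand, had means of 615 ± 143 CPM in Veh HPD and 938 ± 116 CPM in Cort HPD (log2 fold change 0.61, edgeR adjusted p = 0.013). Lox, given above, was the third that rose, while Loxl1 (log2 fold change -0.17, edgeR adjusted p = 0.71) did not pass.

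The 6 other matrix genes that fell lost their call in some omissions. Col5a2, of fibrillar collagen, had means of 93.4 ± 27.5 CPM in Veh HPD and 57.8 ± 13.7 CPM in Cort HPD (log2 fold change -0.69, edgeR adjusted p = 0.038). The call of Col5a2 was kept in only 3 of 8 omissions, those of Veh HPD replicate 4 and Cort HPD replicates 2 and 3 (log2 fold change -0.87 to -0.54). Col6a3, of the microfibrils around cells, had means of 117 ± 52.9 CPM in Veh HPD and 39.6 ± 7.15 CPM in Cort HPD (log2 fold change -1.56, edgeR adjusted p = 0.023). The call of Col6a3 was kept in only 2 of 8 omissions, those of Veh HPD replicate 4 and Cort HPD replicate 2 (log2 fold change -1.83 to -1.37). Mmp14, a membrane metalloproteinase, had means of 58.8 ± 6.97 CPM in Veh HPD and 37.8 ± 6.38 CPM in Cort HPD (log2 fold change -0.63, edgeR adjusted p = 0.027). The call of Mmp14 was kept in only 2 of 8 omissions, those of Veh HPD replicate 4 and Cort HPD replicate 4 (log2 fold change -0.75 to -0.55). Dcn, the proteoglycan decorin, had means of 2742 ± 356 CPM in Veh HPD and 2024 ± 232 CPM in Cort HPD (log2 fold change -0.43, edgeR adjusted p = 0.045). The call of Dcn was kept in only 2 of 8 omissions, those of Veh HPD replicate 3 and Cort HPD replicate 1 (log2 fold change -0.50 to -0.35). Postn, periostin, had means of 50.9 ± 21 CPM in Veh HPD and 15.9 ± 4.17 CPM in Cort HPD (log2 fold change -1.68, edgeR adjusted p = 0.017). The call of Postn was lost without Veh HPD replicate 1, or Cort HPD replicate 3 or 4 (log2 fold change -1.94 to -1.53 over the 8 omissions). Tnxb, a tenascin, had means of 12.5 ± 2.54 CPM in Veh HPD and 6.30 ± 0.887 CPM in Cort HPD (log2 fold change -0.98, edgeR adjusted p = 0.015). The call of Tnxb was lost without Veh HPD replicate 1, or Cort HPD replicate 1 (log2 fold change -1.08 to -0.87 over the 8 omissions).

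Adipocyte progenitor markers had 6 of 16 members lower and 1 higher (median -0.51; 1 higher and 4 lower without Cort HPD replicate 4), and the count of lower genes was 3 without Veh HPD replicate 1 or 3, or 8 without Veh HPD replicate 4. Cd34 (ENSMUSG00000016494, chr1:194938819-194961279), a surface sialomucin, was at 91.1, 78.6, 99.5 and 87.3 CPM in Veh HPD and at 57.8, 58, 53.7 and 65 CPM in Cort HPD (log2 fold change -0.60, SE 0.13, edgeR adjusted p = 0.0031). Pi16 (ENSMUSG00000024011, chr17:29317680-29330593), a marker of fascial progenitors, was at 7.04, 13.1, 18.3 and 9.40 CPM in Veh HPD and at 3.95, 6.21, 2.06 and 5.90 CPM in Cort HPD (log2 fold change -1.40, SE 0.34, edgeR adjusted p = 0.011). The call of Pi16 was lost without Veh HPD replicate 3 (log2 fold change -1.59 to -1.12 over the 8 omissions). Thy1 was at 12.2, 9.76, 18.9 and 7.07 CPM in Veh HPD and at 6.29, 6.63, 4.52 and 4.18 CPM in Cort HPD (log2 fold change -1.15, SE 0.28, edgeR adjusted p = 0.011). The call of Thy1 was lost without Veh HPD replicate 3 (log2 fold change -1.33 to -0.84 over the 8 omissions). Col15a1, a collagen of basement membrane zones, was at 258, 199.5, 280.5 and 153 CPM in Veh HPD and at 116, 125, 72.9 and 55.7 CPM in Cort HPD (log2 fold change -1.27, SE 0.29, edgeR adjusted p = 0.016). The call of Col15a1 was lost without Veh HPD replicate 1, or Cort HPD replicate 3 (log2 fold change -1.45 to -1.10 over the 8 omissions). For each of the 4 the groups did not overlap. Dpp4, a surface peptidase, had means of 22.8 ± 5.36 CPM in Veh HPD and 13.7 ± 3.18 CPM in Cort HPD (log2 fold change -0.73, edgeR adjusted p = 0.032). The call of Dpp4 was kept in only 3 of 8 omissions, those of Veh HPD replicates 2 and 4 and Cort HPD replicate 1 (log2 fold change -0.87 to -0.55). Ly6a (Sca-1) had means of 174 ± 28.2 CPM in Veh HPD and 124 ± 16 CPM in Cort HPD (log2 fold change -0.48, edgeR adjusted p = 0.028). The call of Ly6a was lost without Veh HPD replicate 1 or 2, or Cort HPD replicate 1 or 4 (log2 fold change -0.54 to -0.36 over the 8 omissions). The receptor Pdgfra, the usual marker of these cells, did not pass (log2 fold change -0.31, edgeR adjusted p = 0.53). Fmo2, a monooxygenase, was the member that rose (log2 fold change 0.64, edgeR adjusted p = 0.022). The call of Fmo2 was lost without Veh HPD replicate 1 or 3, or Cort HPD replicate 1 or 3 (log2 fold change 0.54 to 0.75 over the 8 omissions). Of 17 adipogenic transcription factors, 2 rose and 0 fell (median 0.18; 2 higher and 0 lower without Cort HPD replicate 4, and 1 lower without Veh HPD replicate 1 or 4). Zfp423 (ENSMUSG00000045333, chr8:87661810-87959595), a zinc finger factor of committed preadipocytes, was at 33.2, 33.4, 32.6 and 36.4 CPM in Veh HPD and at 42.3, 63.7, 59.7 and 54.7 CPM in Cort HPD (log2 fold change 0.70, SE 0.14, edgeR adjusted p = 0.0023). Cebpa was at 385, 304, 311 and 516 CPM in Veh HPD and at 579.5, 512, 589 and 490.4 CPM in Cort HPD (log2 fold change 0.52, SE 0.14, edgeR adjusted p = 0.023), with overlap and a call kept in only 3 of 8 omissions, those of Veh HPD replicate 4 and Cort HPD replicates 2 and 4 (log2 fold change 0.43 to 0.71). Pparg had means of 193 ± 42.5 CPM in Veh HPD and 258 ± 90.7 CPM in Cort HPD (log2 fold change 0.42, edgeR adjusted p = 0.61).

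Endothelial genes fell in 4 of 19 cases and rose in none (median -0.29; 2 without Cort HPD replicate 4, and 1 without Veh HPD replicate 2). Cldn5 (ENSMUSG00000041378, chr16:18776847-18778262), the claudin of endothelial tight junctions, was at 51.8, 30.8, 38.1 and 30.7 CPM in Veh HPD and at 11.8, 17.6, 23 and 24 CPM in Cort HPD (log2 fold change -0.97, SE 0.22, edgeR adjusted p = 0.007). Sox17, an arterial transcription factor, was at 20, 30, 19.4 and 17.2 CPM in Veh HPD and at 5.48, 8.84, 8.57 and 7.80 CPM in Cort HPD (log2 fold change -1.49, SE 0.37, edgeR adjusted p = 0.017). The call of Sox17 was lost without Veh HPD replicate 2, or Cort HPD replicate 1 (log2 fold change -1.59 to -1.30 over the 8 omissions). Aplnr, the apelin receptor, had means of 2.70 ± 0.865 CPM in Veh HPD and 0.683 ± 0.358 CPM in Cort HPD (log2 fold change -2.0, edgeR adjusted p = 0.038). The call of Aplnr was kept in only 2 of 8 omissions, those of Veh HPD replicate 4 and Cort HPD replicate 2 (log2 fold change -2.35 to -1.76). Vwf, von Willebrand factor, had means of 25.3 ± 5.36 CPM in Veh HPD and 14.1 ± 4.46 CPM in Cort HPD (log2 fold change -0.84, edgeR adjusted p = 0.04). The call of Vwf was kept in only 2 of 8 omissions, those of Veh HPD replicate 1 and Cort HPD replicate 3 (log2 fold change -1.02 to -0.66). Pecam1 (log2 fold change -0.29, edgeR adjusted p = 0.3) and Kdr (log2 fold change 0.04, edgeR adjusted p = 0.96), present on most endothelium, did not pass. Of 18 clock genes, 2 fell (median -0.30) and 0 did so without Cort HPD replicate 1, 2 or 4, while 3 did so without Veh HPD replicate 2. Dbp, an output factor of the clock, was at 21.9, 20.7, 20.5 and 78.8 CPM in Veh HPD and at 7.90, 7.68, 12 and 12 CPM in Cort HPD (log2 fold change -1.83, SE 0.49, edgeR adjusted p = 0.041). Veh HPD replicate 4 was far above the other veh libraries. Dbp overlaps Sphk2 on the other strand, which had a like number of counts and rose (log2 fold change 0.77, edgeR adjusted p = 0.0057). Reads may be shared between these genes if strand was not used. The call of Dbp was lost without Cort HPD replicate 1, 2, 3 or 4 (log2 fold change -2.02 to -1.08 over the 8 omissions, the last without Veh HPD replicate 4). Per3 was at 39, 35.5, 43.4 and 49.1 CPM in Veh HPD and at 21.7, 27.1, 32.9 and 26.2 CPM in Cort HPD (log2 fold change -0.62, SE 0.17, edgeR adjusted p = 0.023). The call of Per3 was kept in only 3 of 8 omissions, those of Veh HPD replicates 1 and 2 and Cort HPD replicate 3 (log2 fold change -0.73 to -0.53). The core genes Arntl (log2 fold change 0.04, edgeR adjusted p = 0.96) and Clock (log2 fold change -0.03, edgeR adjusted p = 0.95) did not pass.

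**Figure D5:**
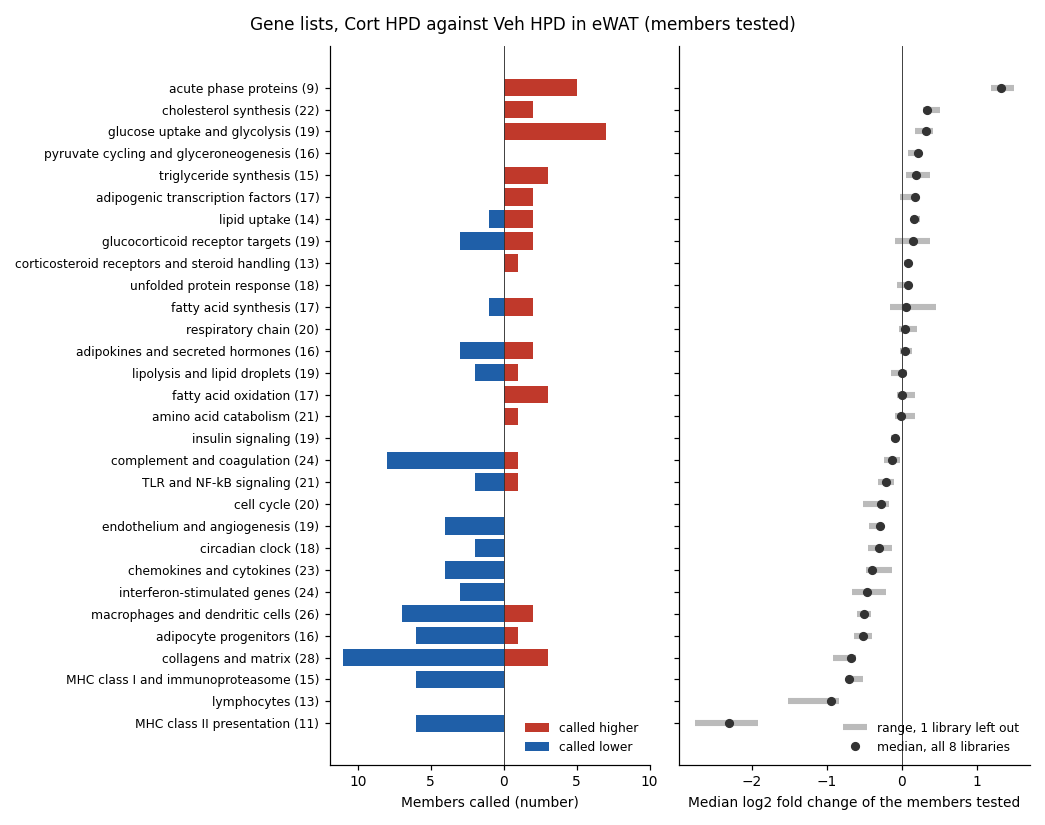
Left, members of each gene list called higher (red) and lower (blue) with cort on the HPD; right, the median log2 fold change of the members tested (points) and its range when each of the 8 libraries was left out (grey bars). MHC class II had the lowest median (-2.30) and the acute phase proteins the highest (1.33); lists of 0 calls have no bar.

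Whether the response differed from that on the NPD was tested as the interaction of diet and cort in the same fit. In this test 2 genes (0.0133%) passed, with 757 at an unadjusted p under 0.05, against 7 genes in DESeq2 and 0 in limma voom. With any 1 of the 16 libraries left out, 0 passed without Veh NPD replicate 1, Veh HPD replicate 1 or 2, Cort NPD replicate 1, 3 or 4, or Cort HPD replicate 3 or 4. In turn, 1 passed without Veh NPD replicate 3 or 4, Veh HPD replicate 4 or Cort HPD replicate 2, and 6 passed without Veh HPD replicate 3 or Cort NPD replicate 2. Without Veh NPD replicate 2 the number was 2, and without Cort HPD replicate 1 it was 3. All 23 genes shown in the plot of the genes with the smallest p moved the same way on the NPD and were called there, and 6 of them had an unadjusted interaction p under 0.05. H2-Ab1 was at 405.5, 376.8, 345 and 346.5 CPM in Veh NPD and 15.7, 21.8, 15.9 and 18.5 CPM in Cort NPD. Its log2 fold change was -4.36 on the NPD and -2.96 on the HPD, a difference of 1.40 (SE 0.23, edgeR interaction adjusted p = 0.024). The Cort HPD libraries lay above the Cort NPD libraries and the Veh HPD libraries tended to lie below the Veh NPD libraries. The 6 class II genes called on the HPD all fell more on the NPD (-2.46 to -4.54 against -1.49 to -3.17), with differences of 0.97 to 1.40, each at an unadjusted interaction p under 0.05, and H2-Ab1 was the one that passed adjustment. Syn2 (ENSMUSG00000009394, chr6:115134902-115282006), a protein of synaptic vesicles, was at 15.3, 20.7, 13.4 and 16.7 CPM in Veh HPD and at 38, 32.9, 35.3 and 30.7 CPM in Cort HPD (log2 fold change 1.06, SE 0.16, edgeR adjusted p = 9.2e-05). On the NPD it was at 9.88, 12.7, 9.94 and 11.6 CPM with veh and 53.1, 49.2, 63.2 and 57.9 CPM with cort, and the difference between diets was -1.28 (SE 0.22, edgeR interaction adjusted p = 0.033). Timp4, which lies within Syn2 on the other strand and had far more counts, rose with cort on the HPD from 362, 427, 421 and 539 CPM in Veh HPD to 1098, 994, 1066 and 908 CPM in Cort HPD (log2 fold change 1.22, SE 0.14, edgeR adjusted p = 2.4e-06), with a difference between diets of -0.27 (edgeR interaction adjusted p = 0.99). Reads of Timp4 counted as Syn2, if strand was not used, could not be separated here. Among the other named genes, Orm1 (difference 0.82, unadjusted p = 5.5e-04) and Cxcl9 (1.11, unadjusted p = 0.005) had an interaction adjusted p of 0.5 and 0.86 in edgeR and did not pass.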

How the data were processed

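QuantSeq 3′ libraries were made from RNA of frozen tissue. The authors deposited 1 table of raw read counts per gene for 32 libraries, not normalized. The 16 eWAT columns were used, and the 16 liver columns gave no value here. The submitters' processing notes name GRCm38 (mm10), R 4.0.3 and limma; the aligner, the counter and its strand setting are not given in the sources used here. Of 47643 gene identifiers, 47224 had a symbol in GENCODE M21, from which coordinates on GRCm38 were taken.

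The count model was edgeR 4.0.16 under R 4.3.3: genes were kept by filterByExpr (minimum count 10, minimum total 15), libraries were scaled by TMM (factors 0.967 to 1.06 in the 8 HPD libraries), and a robust quasi-likelihood fit of the 4 diet and treatment groups gave the contrast of cort with veh on the HPD and the interaction of diet and cort. Fold changes are fitted log2 values with their SE. P-values were adjusted by the Benjamini-Hochberg method with a threshold of 0.05. In edgeR's main fit this was done over all 15187 genes kept by the filter, among them the 100 set aside, which also stayed in the fit. DESeq2 1.42.0 and limma 3.58.1 (voom, with and without sample weights) were alternatives. On simulated counts of 14639 genes, the HPD contrast in edgeR recovered 99% of 200 changed genes with 4.35% false calls, and the interaction 77% with 3.75%. For the interaction, 11.8% of the DESeq2 calls were false. The changes planted were large (median fitted log2 size 2.03 in the HPD contrast) and lay in genes above a floor of counts. All genes had the same dispersion, set below the common dispersion of the 16 eWAT libraries, and no library held RNA of another tissue. Recovery of smaller changes, at the dispersion of the data, or with such a library, was not simulated.

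The genes named are the 12 risen and 12 fallen genes that had the smallest p-values among called genes whose groups do not overlap, the 5 in each direction with the largest fold change among those with a mean of 10 CPM or more, up to 4 called members of each of 30 gene lists, Nr3c1, Hsd11b1, Lep and Adipoq, and up to 6 genes with a called interaction. Other genes are list members named after their values were seen, to complete a list's calls or to give members that did not pass. Some genes that these rules name are not reported here by name, though list counts include them. The members and the lists were chosen with earlier results of these data known. Promoter windows come from RefSeq on GRCm38.p6.

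Replicates were compared before use, and 0 of 12 pairs within the HPD groups were identical.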

Additional observations from a re-analysis of the deposited data

Results flagged for a closer look

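Among 214 groups of 4 libraries checked, for the named genes and the marker sums, 12 held a library far from the other 3 by Dixon's test. The test weighs the gap against the range of the group, so a flag can stand in a narrow group. Chance gives about 1 in 20, and 12 flags are near that share. Veh HPD replicate 4 was such a library for Hsd11b1 (328.3 CPM, the next 122.4), Agt (814.1 CPM, the next 393.8), Dbp (78.8 CPM, the next 21.9), Cox8b (44.4 CPM, the next 16.9) and the adipocyte marker sum (57010.8 CPM, the next 42408.9). Cort HPD replicate 4 was such a library for the epididymis and testis sum (26296.4 CPM, the next 16.2) and for Mgl2 (36.5 CPM, the next 46.0). Veh HPD replicate 3 was one for H2-Aa (538.1 CPM, the next 363.7) and for the epididymis and testis sum (3.12 CPM, the next 0.522). The others were Chil3 in Cort HPD replicate 1 (25.0 CPM, the next 20.5), Vldlr in Cort HPD replicate 2 (104.8 CPM, the next 84.7) and C2 in Cort HPD replicate 3 (62.4 CPM, the next 54.9).

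By the edgeR test of the interaction of diet and cort, the log2 fold change with cort on the HPD minus that on the NPD was -1.28 for Syn2 (adjusted p = 0.033) and 1.40 for H2-Ab1 (adjusted p = 0.024).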

How the results depend on the processing

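The number of genes called on the HPD was 916, and it was 919 with RLE factors, 888 without TMM factors, 1183 in DESeq2, 889 in limma voom, 1227 with sample weights, 856 with no filter on low counts, 643 with only the HPD groups in the fit and 925 with no gene set aside. Which direction held more genes depended on the scaling: 429 were higher and 459 lower without TMM factors, against 516 and 400 with them. Leaving out 1 library gave 581 to 1264 calls, with 343 to 714 higher and 238 to 550 lower, both lowest without Veh HPD replicate 1 and highest without Veh HPD replicate 4. Leaving out replicate 4 of both HPD groups, chosen after seeing the data, gave 1109 calls, of which 720 were shared with the 916. The interaction, with 2 genes called, gave 0 without TMM factors, 7 in DESeq2, 0 in limma voom, 1 with sample weights, 4 with no filter, 1 without replicate 4 of both HPD groups, and 0 to 6 with 1 library left out. For these counts the cause of the changes was not tested.

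With the replicate number as a block, 931 genes were called on the HPD and 9 for the interaction. Libraries of the same number did not deviate together (correlations of -0.04 to -0.01 over genes between HPD libraries of the same number, and 0 of 4 cort libraries correlated best with their own number), so the numbers were not taken as pairs.

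Of 1649 values of 97 named genes under alternatives, 1499 kept their direction and side of the threshold, 150 lost a call, 0 gained one and 0 changed direction. All named genes but Nr3c1 were called in the main fit, so only Nr3c1 could gain a call. Most were also chosen for a small p or a large change, which makes a change of direction unlikely. Of 510 list medians, 479 moved by less than the spread between replicates. At a depth of 9794683 to 18057936 counts, and with 1 gene of each list set aside, 9 of the 16 acute phase genes and 13 of the 24 lymphocyte genes could be tested.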
